A study of Mus musculus with 4 samples.

Results

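The cells described here are cycling neuroblast-stage cells of the lateral ganglionic eminence (LGE), taken from the mouse forebrain at E12.5 (the embryonic day). They were picked from 1 droplet single-cell RNA library by the level of 6 genes, on the scale ln(1 + UMIs per 10000), where a UMI is 1 counted mRNA molecule. Members had Dcx above 1.5, Mki67 and Ccnd2 above 0.5, Mapt and Rbfox3 below 0.5 and Nes at most 1.5. They also had more than 1500 and fewer than 4500 detected genes, less than 5% of UMIs from mitochondrial genes and less than 1% from Hbb genes. In the LGE library 402 cells met all of these limits, out of 4810 cells that passed the quality limits and out of 16544 such cells in the whole series. Because the 6 genes chose the cells, their levels are given as a description and support nothing below.

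The series held 4 libraries, 1 for each of the dorsal cortex (CTX), the LGE, and the medial (MGE) and caudal (CGE) eminences. All came from wild-type C57BL/6 embryos of the same age, with tissue of a region pooled over embryos before dissociation, and no embryo can be traced in the counts. The sample labels name a live-cell sort that the study's methods give only for other embryos, and since this was not settled, shares of cells may carry a sorting step. With 1 library for a region, region and library cannot be told apart, and no test between regions was made. CPM stands for counts-per-million, here the UMIs of a gene scaled to the summed UMIs of the cells, and brackets hold exact 95% intervals (Poisson for CPM, conditional binomial for ratios, Clopper-Pearson for shares) for counting error alone, so the variation among embryos and dissections is not in them.

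The ganglionic eminences are the ventral swellings in which the inhibitory neurons of the forebrain arise. Progenitors divide first along the ventricle, in the ventricular zone (VZ), and then as basal progenitors in the subventricular zone (SVZ), before newborn neurons settle in the mantle zone (MZ). The LGE is known as the source of the projection neurons of the striatum and, in its dorsal part, of interneurons of the olfactory bulb, whereas the MGE and the CGE supply most cortical interneurons. Cells that still cycle while they switch on the early neuronal gene Dcx, a microtubule-binding protein, stand between progenitor and neuron. Mki67 marks cells in the cell cycle, and Ccnd2 encodes a D-type cyclin of basal progenitors.

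The same gate was passed by 219 of 4852 MGE cells and by 72 of 3248 CGE cells. Members therefore made up 8.36% [7.59–9.18] of the kept cells in the LGE, 4.51% [3.95–5.14] in the MGE and 2.22% [1.74–2.78] in the CGE. Along the steps of the gate, Dcx above its limit was found in 45.7% of the kept cells in the LGE, 46.8% in the MGE and 71.7% in the CGE, an order unlike that of the members. Of those cells, 28.6% of 2198 passed the Mki67 limit in the LGE, 19.5% of 2272 in the MGE and 9.01% of 2330 in the CGE. The Ccnd2 limit then kept 88.5%, 70.9% and 63.3% of the remainder in that order, and the limits on the neuronal genes Mapt and Rbfox3 kept 78.1%, 73.6% and 56.4%. Member cells had a median of 8944 UMIs in the LGE, 9335 in the MGE and 10485 in the CGE, so their depth was close. Their summed UMIs were 3655144, 2079196 and 743887, which leaves the CGE values the least precise.

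The limits on Mki67 and Ccnd2 amounted to the presence of any UMI. The lowest member value was 0.547 for Mki67 and 0.563 for Ccnd2, and the nearest cells outside stood at 0. Dcx had no such gap, with 1.5039 just inside and 1.4971 just outside. For Nes the nearest values were 1.4957 inside and 1.5038 outside, and 165 of the 402 members held no Nes UMI. Mapt and Rbfox3 were at 0 UMIs in every member, while the nearest cells outside stood at 0.501 and 0.571. Failing a single condition kept out 915 cells at Dcx, 346 at Mki67, 107 at Mapt, 32 at Nes, 19 at Ccnd2 and 4 at Rbfox3. Median counts in a member were 5 UMIs of Dcx, 5 of Mki67, 21 of Ccnd2 and 1 of Nes.

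The name given to these cells was set against markers that the gate did not use. Vax1, a homeobox gene of ventral forebrain progenitors that had been named as a marker of this stage, stood at 66.5 CPM [58.4–75.4] in LGE members, at 24.0 [17.8–31.7] in MGE members and at 35.0 [22.8–51.2] in CGE members. Before thinning, 40.1% of the LGE members held a Vax1 UMI. Its level in members was only 1.21 times that of LGE cells that met every condition but the one on Mki67. Vax1 thus did little to set the members apart from those cells. Position in the tissue was not measured, so the zone in the name rests on genes alone. Markers of other cells were near 0. All 6 microglial markers were at 0 in LGE members, the 11 cortical glutamatergic markers gave 8 UMIs in sum with 8 of them at 0, the 6 endothelial markers gave 9 UMIs, the 4 oligodendrocyte precursor markers gave 10 and the 7 pericyte and mesenchyme markers gave 2. The 8 erythroid genes summed to 68.4 CPM in LGE members against 60.6 in the MGE and 16.1 in the CGE, and their part in any difference from the CGE was not tested. Predicted doublets numbered 24 of the 402 members (5.97%) and were kept. The LGE library shared 11 cell barcodes with the MGE library, 4 with the CGE library and 15 with the CTX library, and no barcode was a member in both libraries of a pair.

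Genes of the cell cycle were read at their promoters as well as in the counts, since they move together in the life of a dividing cell. Promoter windows from RefSeq (build GRCm38.p6) ran from 250 bases before to 50 after each gene start. Genes that peak in G2 and mitosis are known to carry a cell cycle homology region, searched as TTTGAA, and S-phase genes an E2F site, searched as TTTCCCGC or TTTGGCGC. Both strands were read, and each motif was counted separately whether or not its letters overlapped those of another. RefSeq windows were found for 45 of the 52 genes of the G2/M list and for 31 of the 43 of the S-phase list. TTTGAA occurred in 66% of 50 G2/M windows, in 17.1% of 35 S-phase windows and in 17.9% of all 32851 windows. The E2F letters occurred in 4% of the G2/M windows, in 31.4% of the S-phase windows and in 1.56% of all windows. CCAAT, a box common to both classes, was held by 74% and 68.6% of the windows of these lists and by 37.4% of all. A match describes the letters and shows no binding. The 200 bases upstream of the RefSeq start are printed for a pair of G2/M genes, Top2a (topoisomerase II alpha, chr11:99024190-99024389, minus strand) and Cdk1 (the mitotic kinase, chr10:69352913-69353112, minus strand), with TTTGAA or its reverse complement in capitals. Beside them stand a pair of subunits of the replicative helicase, Mcm6 (chr1:128359706-128359905, minus strand) and Mcm5 (chr8:75109309-75109508, plus strand), with the E2F letters in capitals. They are shown as examples that hold the letters, since Top2a and Cdk1 separate the members from Mki67-low cells and Mcm6 and Mcm5 do not. Other genes of the lists differ from them. Nusap1 of the G2/M list held no TTTGAA in its window. In Hmmr of that list and in Mcm3 of the S-phase list the letters lay only after the start.
Top2a: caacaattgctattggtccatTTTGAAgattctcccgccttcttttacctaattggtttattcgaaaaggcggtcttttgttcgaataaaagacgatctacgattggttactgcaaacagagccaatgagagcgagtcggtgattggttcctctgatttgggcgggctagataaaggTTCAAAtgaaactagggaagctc
Cdk1: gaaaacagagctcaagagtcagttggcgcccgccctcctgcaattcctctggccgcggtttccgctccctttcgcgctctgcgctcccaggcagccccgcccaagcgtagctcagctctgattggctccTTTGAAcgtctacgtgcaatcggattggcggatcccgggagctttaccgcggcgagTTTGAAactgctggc
Mcm6: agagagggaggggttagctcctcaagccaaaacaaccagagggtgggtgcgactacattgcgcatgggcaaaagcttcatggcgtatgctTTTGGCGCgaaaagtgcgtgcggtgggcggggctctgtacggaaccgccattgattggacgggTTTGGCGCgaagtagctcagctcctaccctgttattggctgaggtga
Mcm5: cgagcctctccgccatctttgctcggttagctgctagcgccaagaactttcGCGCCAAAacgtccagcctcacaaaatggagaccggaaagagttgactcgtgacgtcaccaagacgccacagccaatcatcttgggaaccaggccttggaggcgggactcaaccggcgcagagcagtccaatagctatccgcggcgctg

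To place the members between progenitors and neurons, they were set beside 3 other classes of LGE cells. VZ cells had Nes above 1.5 and did not meet the other conditions of the members (636 cells), Mki67-low cells met every condition of the members except that on Mki67 (346 cells), and MZ cells had Dcx above 1.5 with Hes5, Ccnd1, Ccnd2, Mki67 and Nes below 0.5 (567 cells). The LGE MZ class also held genes of other lineages. The 14 MGE genes summed to 1381 CPM in it against 140 in members, the 11 cortical glutamatergic genes to 82.8 against 2.19, and an Lhx6 UMI was found at full depth in 19.9% of MZ cells against 0.498% of members. Levels in MZ cells are thus those of a mixed class, and the part of these lineages in them was not tested. The gate itself draws these contrasts, so the levels are a description. A 2-fold difference with 50 CPM or more on the higher side was counted as past the fold, without the 6 gate genes. Genes called tested are those at 50 CPM or more in either group, and carry no p-value. Against VZ cells 5.76% of 4062 genes tested were past the fold upward in members and 6.72% downward, and against MZ cells 10.5% and 11.7% of 4276. Against Mki67-low cells, 5.71% of 3854 genes tested were past the fold upward in members and 1.22% downward, and nothing is read from the counts beside these shares. The G2/M list had 48 of its 51 tested genes past the fold upward, with a median ratio of 12.53, and the S-phase list had 12 of 35, with a median ratio of 1.37. Top2a stood at 1866 CPM in members and at 103 in Mki67-low cells. Cdk1 stood at 454 and 24.7 CPM. By contrast Mcm6 stood at 159 and 189 CPM, and Mcm5 at 123 and 127. In the MZ cells Mcm6 was at 17.5 and Mcm5 at 12.54 CPM. These are levels summed over cells. Per cell at 3000 UMIs, the S-phase genes took a median of 0.2% of UMIs in Mki67-low cells, with a highest value of 1.93%, against a median of 0.533% in members, so most Mki67-low cells lay below the middle of the members. Rrm2, a subunit of the enzyme that makes deoxyribonucleotides, lay between these patterns at 893, 267 and 25.1 CPM in members, Mki67-low cells and MZ cells.

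Genes of the progenitor state fell into several patterns along the classes. The Notch target Hes5 stood at 570.2 CPM in VZ cells, 30.4 in members, 19.2 in Mki67-low cells and 0 in MZ cells. Fabp7, a radial glial lipid-binding protein, took the same course, with 1538, 85.1, 62.1 and 25.4 CPM in that order, and the cyclin Ccnd1 stood at 386, 31.7, 26.5 and 0 CPM, where the zeros of Hes5 and Ccnd1 follow from the MZ limits. These genes had thus already left most of their VZ level in the members. Sox2, an HMG-box factor of neural progenitors, did not share that course and lay at 805 and 792 CPM in VZ cells and members and at 493 and 305 in the later classes. Insm1, a zinc-finger factor of basal progenitors, had its highest level of the 4 classes in the members, with 275, 600.2, 465 and 89.3 CPM. Gsx2, a homeobox factor that patterns the LGE, went down across the classes, from 61.9 CPM over 34.5 and 17.4 to 1.17.

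Neuronal genes ran the other way, and striatal genes did so in part. Of the striatal list 10 of 11 tested genes were past the fold higher in members than in VZ cells, 4 of 12 were past it lower than in Mki67-low cells and 7 of 14 lower than in MZ cells. Over all genes tested the shares in that order were 5.76%, 1.22% and 11.7%. The gate draws these contrasts, so the counts are a description. Six3 was highest in the members, at 199.8, 461, 332 and 398 CPM from VZ to MZ, and Foxp2 stood at 33.4, 192, 158 and 261 CPM. Tubb3, the neuronal tubulin, stood at 636, 2385, 3947 and 4593 CPM across the 4 classes, and Gad2, an enzyme of GABA synthesis, at 112, 496, 589.6 and 759.8 CPM. Isl1, a LIM-homeobox factor of striatal neurons of the direct pathway, stood at 32.6, 94.9, 213 and 517 CPM. Ebf1, which acts later in the same lineage, did not yet exceed its VZ level in members, with 28.5 CPM in VZ cells, 18.3 in members, 205 in Mki67-low cells and 890.5 in MZ cells. Dlx1 and Dlx2, homeobox factors at the base of the GABAergic program, were at 835 and 874 CPM in members and at 185 and 225 CPM in MZ cells. Sp8, a zinc-finger factor of the dorsal LGE and its olfactory bulb interneurons, also had its highest level in the members, at 22.3, 135, 98.6 and 28.9 CPM. Genes with a higher level in members than in both VZ and MZ cells were ranked by the smaller of the ratios. The first 10 were Stk32c, Sp8, Dlx6os2, E130006D01Rik, Esrrg, Slc18a2, Nudt4, Gm37524, Tmem123 and Shtn1, with Stk32c 5.10-fold and Shtn1 3.25-fold over the higher of the other classes. Slc18a2, the vesicular monoamine transporter, stood at 54.7 CPM in VZ cells, 218 in members, 205 in Mki67-low cells and 36.8 in MZ cells, so its Mki67-low cells were near the members.

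**Figure D1:**
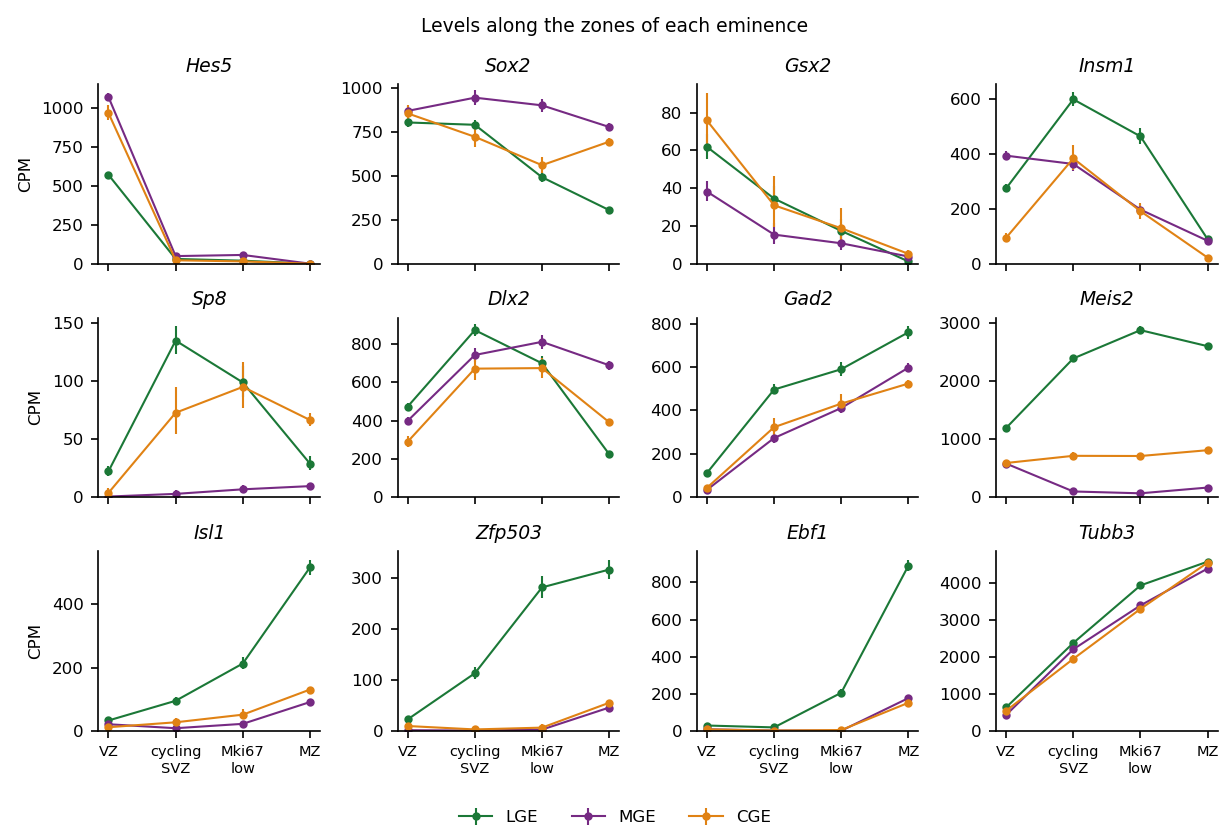
CPM of 12 genes in the LGE, MGE and CGE across 4 classes of cells (VZ, cycling SVZ, Mki67-low and MZ) on linear axes that start at 0 and differ in range between genes, with exact Poisson 95% intervals and no replicate libraries. In the LGE, Hes5 stands at 570.2 CPM in VZ cells and 30.4 in members, while Isl1 and Zfp503 stand at 94.9 and 113 CPM in members and higher in the later classes.

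A first regional question was which genes set LGE members apart from cells that passed the same gate elsewhere. Against MGE members, 84 of 3821 genes tested were past the 2-fold limit upward (2.2%) and 69 downward (1.81%). Against CGE members, 73 of 3828 were past it upward (1.91%) and 42 downward (1.1%). Of 3665 genes tested in both comparisons, 45 were higher in the LGE than in both (1.23%) and 14 were lower than in both (0.382%). Both comparisons use the same LGE cells, so these 45 genes, 53.6% of the set against the MGE and 61.6% of that against the CGE, are a count and not an independent repeat. Only S100a10 and Runx1t1 were past the fold in opposite directions. S100a10 stood at 52.3 CPM in the LGE, 121 in the MGE and 25.5 in the CGE, and Runx1t1 at 85.1, 205 and 40.3.

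Zfp503, a zinc-finger factor known from striatal development (Nolz1, chr14:21983959-21989601, minus strand), led the genes that were higher in LGE members. It had 414 UMIs in the LGE, or 113 CPM [103–125], and 1 UMI in the MGE and 2 in the CGE. The ratio was 236 [42.0–9324] over the MGE and 42.1 [11.6–349] over the CGE, and the intervals are wide because so few UMIs stood against it. Aldh1a3, a retinaldehyde dehydrogenase that makes retinoic acid (chr7:66390890-66427517, minus strand), had 303 UMIs or 82.9 CPM [73.8–92.8] and 1 UMI in each of the other regions. Its ratio was 172 [30.7–6830.0] over the MGE and 61.7 [10.985–2444] over the CGE. Both genes were thus close to absent from the cycling cells of the other eminences.

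The next genes were present but lower elsewhere. Islr2, a membrane protein of growing axons (chr9:58196297-58204319, minus strand, overlapping Islr and 1600029O15Rik), stood at 126 CPM in the LGE, 6.73 in the MGE and 12.1 in the CGE. Shisa2, an inhibitor of Wnt and FGF receptor maturation, stood at 79.6, 2.40 and 9.41 CPM. Syt6, a synaptotagmin, stood at 50.9, 6.25 and 5.38 CPM. Unlike the others, Shisa2 was highest in VZ cells (143 CPM) within the LGE. A pair of forkhead repressors followed. Foxp4 was at 107 CPM [96.9–118] in the LGE, 3.37 in the MGE and 17.5 in the CGE, a ratio of 6.14 [3.55–11.6] over the CGE. Foxp2 was at 192 CPM [178–206], 5.77 and 35.0, a ratio of 5.48 [3.71–8.45] over the CGE. In both the CGE held the intermediate level.

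The same order, LGE over CGE over MGE, held for the remaining genes of the leading 12. Nefm, a neurofilament subunit that overlaps Nefl on the other strand, stood at 401 CPM in the LGE, 36.6 in the MGE and 73.9 in the CGE. Zfhx3, a zinc-finger homeobox factor, stood at 324, 15.9 and 63.2 CPM. Flrt2, an adhesion protein with leucine-rich repeats, stood at 337, 11.1 and 67.2 CPM. Six3os1, at 69.8, 2.40 and 17.5 CPM, is an antisense RNA that overlaps Six3, and whether reads were assigned by strand was not stated, so its counts are uncertain. Tmem123 closed the group with 218, 50.02 and 59.1 CPM. Across these 10 genes the ratio over the higher of the other regions ran from 3.69 for Tmem123 to 10.4 for Islr2.

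**Figure D2:**
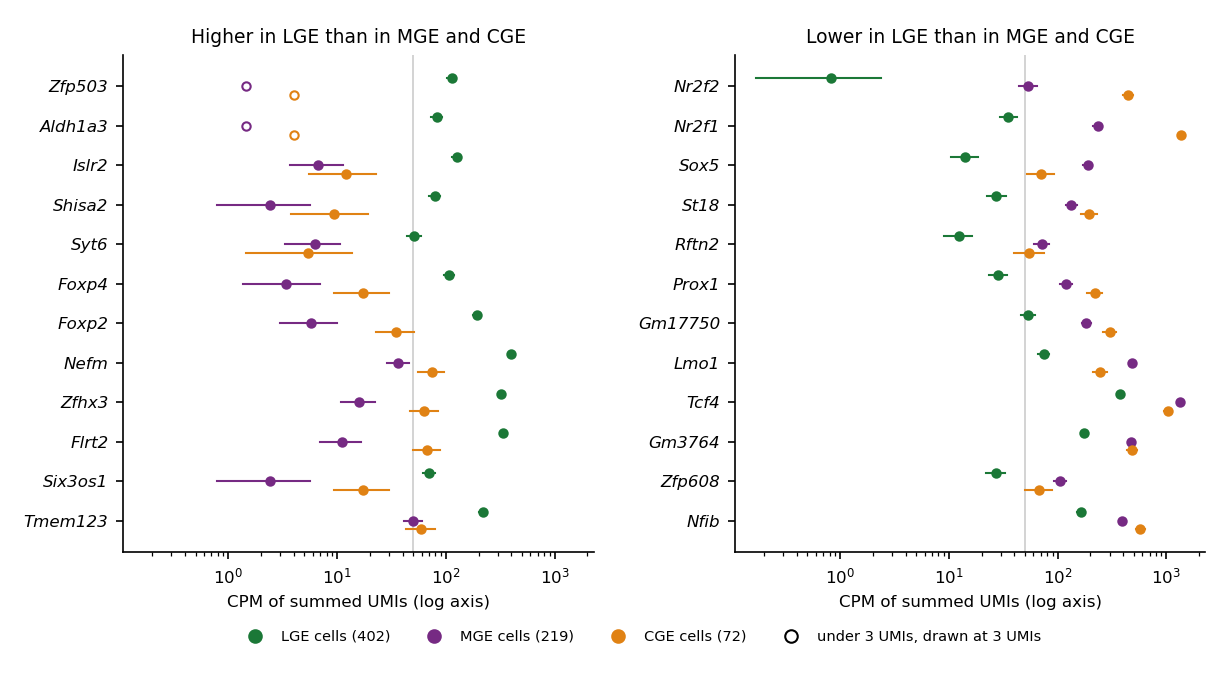
CPM on a log axis of the 12 genes most raised and the 12 most lowered in LGE members against both other eminences, by region, with exact Poisson 95% intervals; open circles mark values under 3 UMIs, drawn at the level of 3 UMIs, and the grey line stands at 50 CPM. Zfp503 and Aldh1a3 stand at 113 and 82.9 CPM in the LGE with 1 or 2 UMIs elsewhere, and Nr2f2 stands at 448 CPM in the CGE with 3 UMIs in the LGE.

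Among the genes that were lower in LGE members the first were the COUP transcription factors, orphan nuclear receptors of the caudal eminence. Nr2f2 (chr7:70351944-70366735, minus strand) had 3 UMIs in the LGE, against 53.9 CPM [44.4–64.8] in the MGE and 448 CPM [401–498] in the CGE. The MGE level was 65.6 times [21.9–323] and the CGE level 545 times [185–2658] the LGE level. Nr2f1 stood at 35.3 CPM in the LGE, 234 in the MGE and 1366 in the CGE, so it was present in all 3 regions with the LGE lowest. The homeobox factor Prox1 stood at 28.5, 119.8 and 219 CPM, and St18, a zinc-finger factor, at 27.4, 134 and 196 CPM. These share the order of the COUP factors.

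Of the others, Sox5, Lmo1, Tcf4, Rftn2 and Zfp608 were highest in the MGE. Sox5, an HMG-box factor, stood at 14.0 CPM in the LGE, 189 in the MGE and 69.9 in the CGE. Lmo1, a LIM-only cofactor, stood at 74.7, 483 and 246 CPM. Tcf4, a basic helix-loop-helix factor, stood at 373 CPM [354–394], 1342 [1292–1393] and 1032 [961–1108]. Nfib, a factor of the nuclear factor I family, was at 164, 395 and 575 CPM with the CGE highest. The list also held Rftn2 (12.3, 71.7 and 55.1 CPM), Zfp608 (27.1, 105 and 67.2 CPM) and the predicted genes Gm17750 (53.3, 184 and 301 CPM) and Gm3764 (176, 475 and 483 CPM). All 12 had ratios of the lower of the other regions to the LGE of 2.41 or more.

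Genes of the striatal projection list that reached the level limit were mostly higher in LGE members. Of 21 genes in the list 11 reached 50 CPM in LGE or MGE members. Against the MGE 9 were past the fold upward (2.2% of all genes tested) and none downward. The median log2 ratio was 2.97, beside 0.01 over all genes tested. Against the CGE 10 of 11 were past it upward (1.91% of all genes tested), with a median log2 ratio of 2.23 beside -0.01 over all genes. Lists like this one were drawn with earlier results of these data known. Of the genes tested, 5 reached 50 CPM in the LGE alone against the MGE and 7 against the CGE. The counts and medians of this list are thus a description. Apart from Zfp503, Aldh1a3, Foxp2 and Zfhx3, the list gave Isl1 at 94.9 CPM [85.2–105] in the LGE, 8.18 in the MGE and 26.9 in the CGE. Six3, a homeobox factor that overlaps Six3os1, stood at 461, 58.7 and 164 CPM. Foxp1, a forkhead factor, stood at 201, 66.9 and 44.4 CPM.

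The remaining striatal genes differed less evenly between the regions. Mpped2, a metallophosphodiesterase, stood at 1607 CPM in the LGE, 801 in the MGE and 454 in the CGE, a ratio of 2.01 [1.90–2.12] over the MGE. Gucy1a1, a subunit of soluble guanylate cyclase, stood at 195, 62.5 and 41.7 CPM. Pou3f1, a POU-domain factor, was past the fold only over the CGE, with 313, 220.3 and 36.3 CPM. Bcl11b, the zinc-finger factor Ctip2 that matures striatal neurons, stood at 508 CPM in the LGE, 901 in the MGE and 441 in the CGE and was past the fold in neither comparison. Ebf1 stood under the level limit with 67 UMIs in the LGE, 3 in the MGE and 1 in the CGE.

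Dorsal LGE genes separated the members from the MGE more than from the CGE. Sp8 stood at 135 CPM [123–147] in the LGE, 2.89 in the MGE and 72.6 [54.5–94.7] in the CGE, a ratio of 46.6 [21.3–128] over the MGE and 1.85 [1.40–2.50] over the CGE. Pax6, a paired-box factor, stood at 60.2, 0.962 and 67.2 CPM, so that the LGE and CGE intervals overlapped while the MGE had 2 UMIs. Tshz1, a zinc-finger factor of the olfactory interneuron lineage, stood at 119, 26.0 and 44.4 CPM. Etv1, an ETS factor, showed the opposite split with 98.2, 65.9 and 6.72 CPM. Of the 8 genes in the list 4 were tested, with 3 past the fold upward against the MGE (2.2% of all genes tested) and 2 against the CGE (1.91%) and none downward. Against the MGE 3 of the 4 reached 50 CPM in the LGE alone, so these counts are a description. The median log2 ratios were 3.79 and 1.16.

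Of 12 homeobox and forkhead genes 9 were tested, with 7 past the fold upward against the MGE (2.2% of all genes tested), 5 against the CGE (1.91%) and none downward. Of the 9, 3 reached 50 CPM in the LGE alone against the MGE and 2 against the CGE. Meis2, a TALE homeobox factor of the LGE (chr2:115863064-116065839, minus strand), stood at 2388 CPM [2338–2439] in LGE members, 99.1 [86.0–114] in the MGE and 712 [653–776] in the CGE. Pbx3, a TALE homeobox partner of Meis factors, stood at 417, 65.4 and 209.7 CPM. Meis1 stood at 151, 36.1 and 79.3 CPM, and Lhx2, a LIM-homeobox factor of progenitors, at 58.3, 26.0 and 25.5 CPM.

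The shared GABAergic program was near equal in the regions at its median. Of 17 genes in that list 14 were tested. Only Vax1 and Sp8 were past the fold against the MGE (2.2% upward over all genes tested), and none against the CGE (1.91%). Both reached 50 CPM in the LGE alone against the MGE. The median log2 ratio was -0.06 against the MGE, with single genes from -0.92 to 5.54. Against the CGE it was -0.01, with single genes from -0.61 to 0.93. Dlx5 stood at 439.9 CPM [419–462] in the LGE, 447 [419–477] in the MGE and 442 [396–493] in the CGE. Dlx1 stood at 835, 957 and 754 CPM, Dlx2 at 874, 744 and 672. Gad2 was somewhat higher in the LGE, at 496, 273 and 323 CPM, and Gad1, the other enzyme of GABA synthesis, somewhat lower, at 66.8, 111 and 102 CPM.

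Genes that mark the other eminences were low in LGE members. The 14 genes of the MGE list summed to 140 CPM in LGE members and to 2416 CPM in MGE members. The 9 that were tested all reached 50 CPM in the MGE alone, so that their lower level in the LGE was set by the limit, and nothing is read from their count past the fold (9, beside 1.81% of all genes tested). Nkx2-1, the homeobox factor that specifies the MGE, had 7 UMIs (1.92 CPM) in LGE members, 975 CPM in the MGE and 48.4 CPM in the CGE. Lhx6, the LIM-homeobox factor of MGE interneurons, had 2 UMIs against 349.6 and 43.0 CPM. Lhx8, a factor of the cholinergic lineage, had 16 UMIs (4.38 CPM) against 246 CPM in the MGE and 0 UMIs in the CGE. None of the MGE genes was tested against the CGE, since none reached 50 CPM in either group. Of the CGE list 5 of 13 genes were tested, 4 of them through the other region alone, and Nr2f1, Nr2f2 and Prox1 were past the fold downward in both comparisons. Flrt2, also a gene of that list, was past it upward in both. Over all genes tested 1.81% were past the fold downward against the MGE and 1.1% against the CGE. The upward shares were 2.2% and 1.91%, and nothing is read from the count of these genes.

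Genes of radial glia, of basal progenitors and of neuronal maturation were past the fold in both directions. Of 15 radial glial genes 7 were tested, none was past the fold against the MGE, and Ptprz1, a receptor phosphatase, was past it downward against the CGE with 67.3 CPM in the LGE, 106 in the MGE and 192 in the CGE. Against the MGE 1 of 14 basal progenitor genes was past the fold upward (Mpped2) and 2 downward (Tcf4 and Sox11), and against the CGE 1 upward (Mpped2) and 3 downward (Btg2, Dll1 and Tcf4). Over all genes tested the shares were 2.2% upward and 1.81% downward against the MGE and 1.91% and 1.1% against the CGE. Sox11, an HMG-box factor of newborn neurons, stood at 4449.9 CPM in the LGE, 9339 in the MGE and 5838 in the CGE. Btg2, an antiproliferative factor, stood at 52.3, 61.1 and 128 CPM. Of 12 tested neuronal maturation genes 2 were past the fold upward and none downward against the MGE, and 2 upward and 1 downward against the CGE. Nefm, a neurofilament subunit, stood at 401 CPM in the LGE, 36.6 in the MGE and 73.9 in the CGE. Stmn2, a tubulin-binding protein of growing neurites, stood at 673, 337 and 159 CPM, past the fold against the CGE and just under it against the MGE. Tubb3 differed little, with 2385, 2213 and 1953 CPM, and the RNA-binding protein gene Elavl4 was past the fold downward against the CGE, with 197, 364 and 452 CPM.

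**Figure D3:**
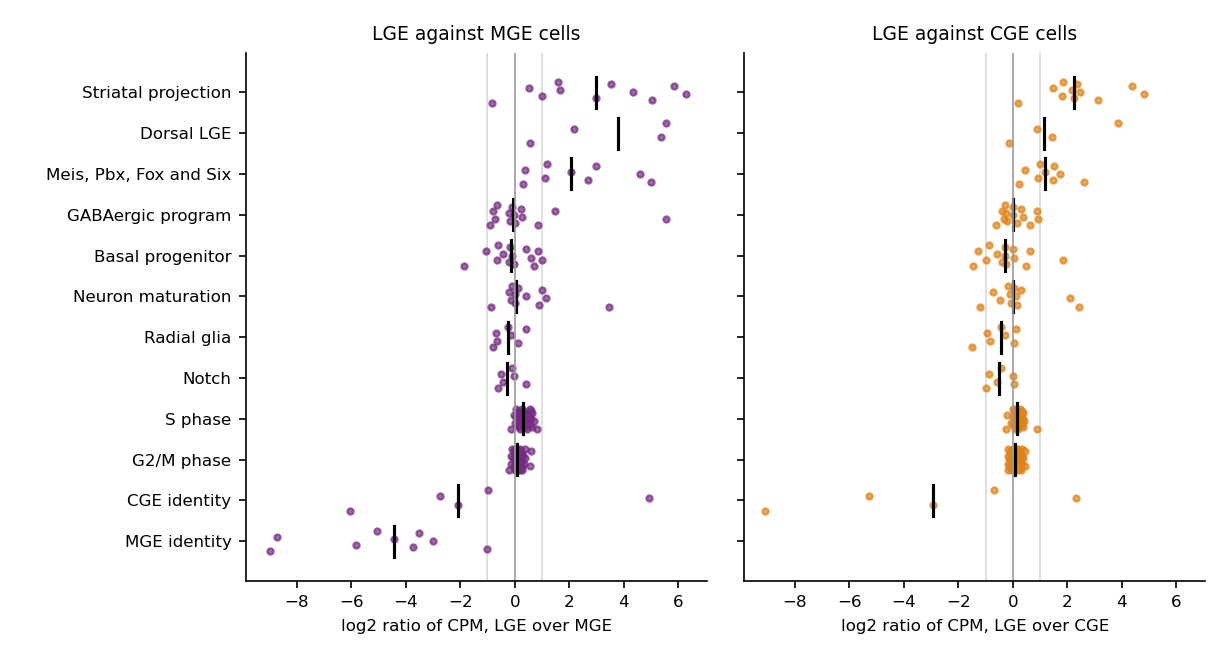
log2 ratios of LGE members over MGE members (left) and over CGE members (right) for the genes of each list that reached 50 CPM, with 1 point for a gene and a black bar at the median. Striatal genes have medians of 2.97 and 2.23 and the MGE list a median of -4.45 against the MGE. The G2/M and GABAergic lists have medians near 0, and the S-phase list has medians of 0.31 and 0.15.

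Signalling genes were sparse at this depth. Of 19 Notch pathway genes 6 were tested, and the ligand Dll1 alone was past the fold, downward against the CGE (1.1% of all genes tested). It stood at 55.0 CPM in the LGE, 56.3 in the MGE and 110.2 in the CGE. Dll3, a Notch ligand that acts within the cell, stood at 94.1, 144 and 139.8 CPM. In the retinoic acid list 4 of 15 genes were tested, of which Aldh1a3 was past the fold upward against the MGE, and Aldh1a3 and Crabp2 were among those past it against the CGE. Of the 4, 2 reached 50 CPM in the LGE alone against the MGE and 3 against the CGE. Over all genes tested 2.2% and 1.91% were past the fold upward, and these calls are a description. Crabp2, a carrier of retinoic acid, stood at 56.6, 80.3 and 25.5 CPM. The receptor gene Rarb, a retinoic acid target, had 11 UMIs in the LGE and 0 in both other regions, too few for a fold. Gas1, a hedgehog co-receptor, was the 1 tested gene of its list and stood at 58.8, 2.89 and 29.6 CPM. Of 20 guidance genes 9 were tested against the MGE, and 4 of the 9 reached 50 CPM in the MGE alone. Epha3, an ephrin receptor, was past the fold upward against the MGE, at 199, 88.0 and 211 CPM, and Robo2, Ackr3, Efna5 and Plxna4 downward. Over all genes tested the shares against the MGE were 2.2% upward and 1.81% downward, and nothing is read from the count of these genes. Epha5 stood at 71.4 CPM in the LGE, 84.6 in the MGE and 380.4 in the CGE.

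To compare cycling itself, the share of each cell's UMIs from the S-phase and G2/M lists was taken after drawing each cell down at random to 3000 UMIs. No LGE member, 2 MGE members and 1 CGE member fell under that depth. G2/M genes gave a median of 2.03% of the UMIs in LGE members, with quartiles of 1.17% and 3.20%, 1.97% in MGE members and 2.00% in CGE members. S-phase genes gave 0.533% in the LGE, 0.367% in the MGE and 0.433% in the CGE. Within the LGE the G2/M medians were 1.13% in VZ cells, 0.267% in Mki67-low cells and 0.167% in MZ cells, and the S-phase medians 0.667%, 0.2% and 0.1%. Members thus had the highest G2/M load of the 4 classes, a contrast that the Mki67 limit itself draws, and a lower S-phase load than VZ cells. None of the 34 S-phase and 51 G2/M genes tested was past the fold against either region. Over all genes tested 2.2% were past it upward and 1.81% downward against the MGE, and 1.91% and 1.1% against the CGE. With shares this low, nothing is read from that count. The S-phase median log2 ratio was 0.31 against the MGE and 0.15 against the CGE, and the G2/M median 0.09 against each. Top2a stood at 1866 CPM in the LGE, 1581 in the MGE and 1616 in the CGE, and Hmgb2, a chromatin protein of dividing cells, at 2898, 2885 and 2882 CPM. Cdkn1c, the cyclin-dependent kinase inhibitor p57, was past the fold downward against the MGE, with 94.4, 196 and 52.4 CPM. Cdkn1b (p27) was level, with 152, 155 and 125 CPM.

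**Figure D4:**
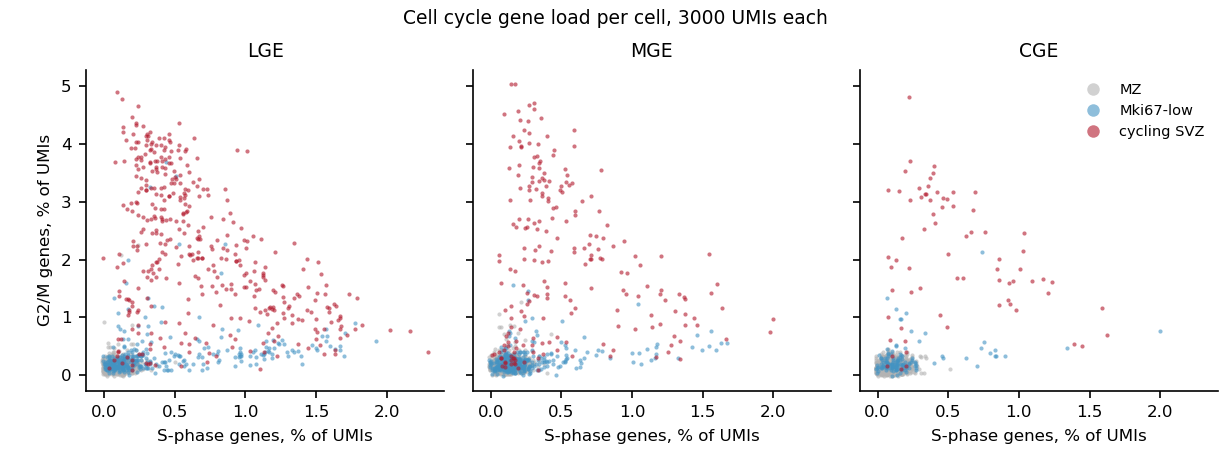
Share of each cell's UMIs from the S-phase list (horizontal axis) and from the G2/M list (vertical axis), in percent after thinning to 3000 UMIs, with 1 point for a cell of the LGE, MGE and CGE, red for cells passing the gate, blue for Mki67-low cells and grey for MZ cells. The G2/M medians of members lie at 2.03%, 1.97% and 2.00%, and the S-phase medians at 0.533%, 0.367% and 0.433%.

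The share of members with a UMI of a gene follows its level, so such shares alone do not show that members differ. After thinning to 3000 UMIs, Meis2 was found in 99.0% [97.5–99.7] of LGE members, Dlx2 in 85.6% [81.8–88.9] and Gad2 in 75.6% [71.1–79.7]. Foxp2 was found in 34.1% [29.5–38.9], Sp8 in 28.4% [24.0–33.0] and Zfp503 in 21.4% [17.5–25.7]. Isl1 was found in 13.4% [10.3–17.2], Pax6 in 12.4% and Aldh1a3 in 12.2%. MGE members served as cells that should lack most of these genes, at a median depth of 9335 UMIs against 8944. There Isl1 was found in 2.30% [0.752–5.29], Sp8 in 0.461% and Foxp2 in 2.30%, and Zfp503, Aldh1a3 and Pax6 in 0 of 217 cells, which allows a share of cells with a UMI at this thinned depth of up to 1.38%. At full depth 1, 1 and 2 of the 219 MGE members held them. Nr2f2 was found in 0 of 402 thinned LGE members, which allows up to 0.746% with a UMI, and in 3 of 402 at full depth. Such limits are on cells with a UMI and not on cells that express the gene. Nkx2-1 was found in 0.249% of LGE members against 86.6% of the MGE members. Without thinning the shares in LGE members were 25.4% for Isl1, 53.2% for Sp8 and 36.6% for Zfp503.

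Isl1 and the pair Sp8 and Pax6, which mark the ventral and the dorsal LGE, tended to lie in different members. At full depth 102 of the 402 members held Isl1 and 258 held Sp8 or Pax6. Both kinds were found in 36 cells where the product of the shares gives 65.5, a ratio of 0.550, and 78 cells held none of these genes. The same ratio was 0.442 in the 346 Mki67-low cells and 0.233 in the 567 MZ cells. At full and unequal depth Isl1 was held by 25.4% of members, 35.8% of Mki67-low cells and 49.2% of MZ cells. Sp8 or Pax6 was held by 64.2%, 34.7% and 16.9% in that order. After thinning, a Pax6 UMI was found in 16.4% of LGE VZ cells and 12.4% of members. Whether the split follows position or stage was not tested. The 66 cells with Isl1 only had a median of 8370 UMIs and the 222 with Sp8 or Pax6 only 9242, so their depth was near. Since the sets were cut by measured genes, the levels that follow are a description.

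Zfp503 stood at 298 CPM in the Isl1-only members and at 32.0 CPM in the Sp8 or Pax6 members, a ratio of 9.34 [6.996–12.6]. Aldh1a3 stood at 289.9 and 34.4 CPM, a ratio of 8.43 [6.35–11.3]. Pou3f1 stood at 894 and 92.5 CPM, a ratio of 9.66 [8.17–11.5]. In the 78 members with none of Isl1, Sp8 and Pax6 these 3 genes of the striatal list stood at 161, 59.8 and 366 CPM, between both sets. Nrp1, a semaphorin and VEGF receptor, stood at 146 and 27.6 CPM, Islr2 at 281 and 78.9, Zfhx3 at 549 and 229, and Six3 at 772 and 334. Foxp1, a gene of the same list, was near level with a ratio of 1.10 [0.889–1.35]. Foxp2, a striatal gene in the list, ran the other way with 108 and 228 CPM.

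Higher in the Sp8 or Pax6 members were Etv1, at 17.2 CPM in the Isl1-only members and 136 in the others, and Gm3764, at 66.9 and 232. Vax1 stood at 30.9 and 80.4 CPM, Tshz1 at 68.6 and 144, and Tcf4 at 206 and 469.8. The gate gene Ccnd2 also differed, with 1499 and 2913 CPM. Tubb3 did not separate the sets, at 2469 and 2331 CPM, nor did Top2a, at 1809.9 and 1957 CPM. The sets thus differed in regional genes and in the cyclin gene Ccnd2 and were close in Top2a and Tubb3. These genes alone do not show whether the sets match in cycling or in neuronal stage.

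**Figure D5:**
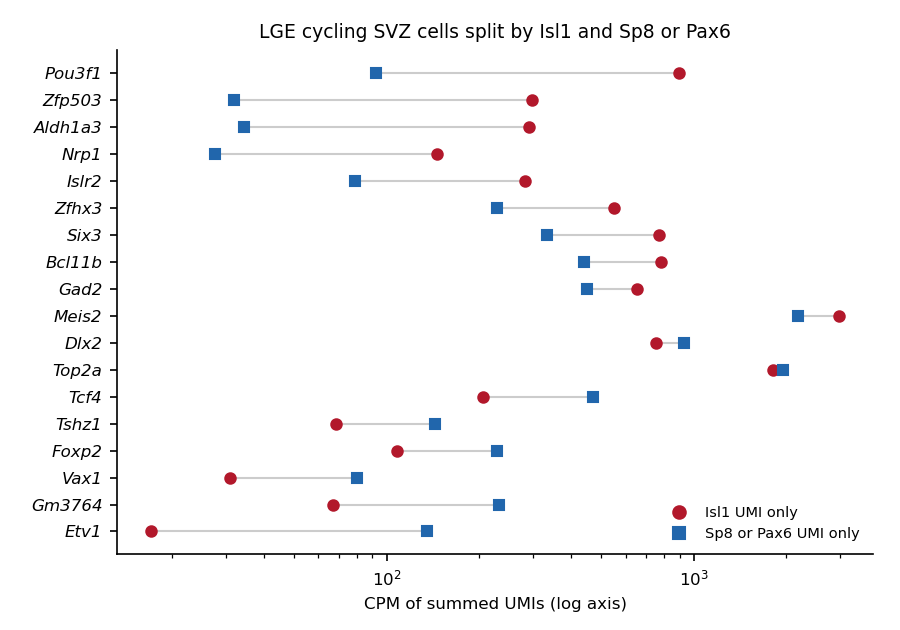
CPM on log axes of 18 genes in LGE members with Isl1 only (102 members held Isl1 in all) and in members with Sp8 or Pax6 only, with the sets defined at full depth. Pou3f1, Zfp503 and Aldh1a3 lie on the Isl1 side with ratios of 9.66, 9.34 and 8.43, and Etv1 on the other side.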

How the data were processed

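The files deposited by the authors held raw UMI counts per gene and cell barcode for 4 libraries, with every barcode at 500 UMIs or more. They were made with Cell Ranger, version 3.0.0 in the submitters' notes and 3.0.2 in the file headers, on mm10. The annotation release and the strand setting of the counting were not given in the sources used here, so overlapping and antisense genes are uncertain. Gene names and positions came from GENCODE M21 on GRCm38, which matched 42462 of 43346 features, and Dlx6os1 stands for the first of its features. The libraries held 31451467 to 49794765 UMIs, and the precision of each value is given by its counting interval.

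Members and lists of genes were chosen with earlier results of these data known. UMIs of the cells of a class were summed for each library, and ratios were formed on CPM, with a denominator under 3 UMIs set to 3 for ranking, counts and medians. Genes at 50 CPM or more in either group were tested for a 2-fold ratio. Named genes were those of the lists, the 12 with the largest ratio of LGE members to the higher of the other regions, the 12 with the largest ratio of the lower of the other regions to LGE members, and the 10 highest against VZ and MZ cells. Some genes of the lists are not reported here. Doublets were scored against simulated pairs (30 components, 50 neighbours) and the highest scores marked at 0.8% per 1000 barcodes. The steps were tested on simulated data and run in Python 3.11.15 with numpy 2.4.6, scipy 1.17.1, pandas 2.3.3, scikit-learn 1.9.0 and matplotlib 3.10.9. Alternatives varied the gate, the quality limits, the scaling, the level and fold limits, the depth and the cells kept. Leaving out barcodes found in another library, and keeping cells with 1% to 3% of UMIs from G2/M genes, were added after seeing the data.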

Additional observations from a re-analysis of the deposited data

Results flagged for a closer look

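A gene was flagged if members and VZ cells differed at least 2-fold, in opposite directions in the LGE and in another eminence. It also needed 50 CPM or more in members or VZ cells of both regions. By these limits 4 genes of the lists were higher in members than in VZ cells in the LGE and lower in another eminence. Smaller changes and lower levels were not counted. The difference between regions was not tested, since each region had 1 library, and the gate draws the contrast of members and VZ cells. Meis2 had a ratio of members to VZ cells of 2.00 in the LGE (2388 and 1192 CPM) and of 0.171 in the MGE (99.1 and 579 CPM). Six3 had a ratio of 2.31 in the LGE (461 and 199.8 CPM) and of 0.488 in the MGE (58.7 and 120.3 CPM). Tshz1 had a ratio of 2.08 in the LGE (119 and 57.0 CPM) and of 0.392 in the MGE (26.0 and 66.3 CPM). Nrp1 had a ratio of 3.76 in the LGE (52.8 and 14.1 CPM) and of 0.397 in the CGE (26.9 and 67.7 CPM).

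In the CTX library, which no comparison used, 15 of 3634 kept cells (0.413%) passed the same gate. All 15 held a UMI of Neurod2, 14 held Neurod6 and 14 held Eomes, genes of the cortical excitatory lineage, and 0 of 15 held Dlx1, Dlx2, Dlx5 or Gad2. The gate alone thus does not set a cell's lineage, whereas 98.3% of the LGE members held a Dlx1 UMI.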

How the results depend on the processing

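The share of members in the LGE was 13.3% with a Dcx limit of 1.0, 2.74% with 2.0, 7.34% with Mki67 and Ccnd2 above 1.0, 3.47% with Nes below 0.5 and 10.7% without the Mapt and Rbfox3 limit. Counts past the fold are given in the order higher than MGE, lower than MGE, higher than CGE, lower than CGE, higher than both, lower than both, where main values were 84, 69, 73, 42, 45 and 14. They were 471, 913, 379, 1652, 120 and 378 with no level limit, 39, 40, 34, 18, 26 and 8 at 100 CPM, 173, 169, 164, 146, 90 and 42 at 1.5-fold, and 48, 40, 32, 16, 20 and 8 at 3-fold. With a Dcx limit of 2.0 they were 163, 155, 123, 101, 61 and 27, on 132, 46 and 31 cells in LGE, MGE and CGE. With Nes below 0.5, 80 genes were lower than CGE and 22 lower than both. With members thinned to 3000 UMIs, 138 were higher and 142 lower than CGE and 27 lower than both. The cause of these moves was not tested. With no level limit, lower genes outnumbered higher ones in every comparison, as they did by a few genes against the MGE at 100 CPM and against the CGE with thinning. The 3 UMIs set in place of lower counts equal 0.821 CPM in LGE members, 1.44 in MGE members and 4.03 in CGE members. With no level limit, a gene with few UMIs in the LGE and none in the CGE could therefore count as lower. No direction is read from those counts. Of the other alternatives of these counts and shares 104 moved less than 1.5 times or less than the counting interval. The 12 genes most raised kept a positive log2 ratio and the 12 most lowered a negative one in 18 alternatives each, but 8 of the first and 6 of the second moved by over 1.5 times in at least 1 alternative. The log2 ratio of Aldh1a3 ran from 2.56 to 5.33, that of Zfp503 from 3.19 to 5.40, that of Islr2 from 1.89 to 3.91 and that of Nr2f2 from -6.47 to -2.56. Over single genes, list medians and shares of cells, 124 values moved beyond their counting interval or, for medians, by over 0.2 on the log2 scale, and 806 did not. Median log2 ratios that were near 0 changed sign in some alternatives. These were the GABA, G2/M and neuronal maturation medians over both regions, the basal progenitor median over the MGE and the S-phase median over the CGE, with the widest range in the G2/M median over the MGE (-0.02 to 0.71).

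No paired analysis was possible because each region had 1 library, and no replicate could be left out. The CGE had 72 members, and genes under 50 CPM in both groups were not counted, with some given as UMIs. A value here belongs to 1 library and not to a region.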
